A study of Mus musculus with 12 samples.

Results

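The genotype by LPS interaction asks whether macrophages without the nuclear receptor ERRα respond to lipopolysaccharide (LPS) differently from macrophages that have it. For each gene it is the LPS response (LPS minus PBS) in ERRα-/- cells minus the LPS response in ERRα+/+ cells, on the log2 scale, and is called the response difference from here on. A positive value means a larger rise or a smaller fall in ERRα-/- cells. It uses all 12 arrays of the series, and 13116 of the 20887 genes named on the array were bright enough to be tested: their probe was well above background on each of the 3 arrays of some group. The cells were macrophages grown from bone marrow of male C57BL6 mice aged 6 to 8 weeks, kept 5 to 7 days in M-CSF, which drives macrophage growth. The 4 groups, with 3 arrays each, were ERRα+/+ with PBS, ERRα+/+ with LPS at 100 ng/mL, ERRα-/- with PBS and ERRα-/- with LPS at 100 ng/mL; M-CSF culture was common to all. The sources used here give neither the length of the LPS treatment nor the deleted part of the ERRα gene, Esrra. The labels do not say whether replicates came from separate mice or cultures, so p-values measure only the spread between these samples.

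ERRα binds DNA at a half-site preceded by a short extension and, with coactivators of the PGC-1 family, drives genes of mitochondrial respiration, the tricarboxylic acid cycle and fatty acid oxidation. LPS acts on macrophages through the receptor TLR4. One adaptor branch leads to NF-kB, AP-1 and early cytokines, and another to IRF3, interferon β and interferon-stimulated genes. In an interaction term a genotype difference that is equal under both treatments cancels. A difference present only at rest, or only under LPS, enters it in full.

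Replicate 1 of each group lay on slide 1, and replicates 2 and 3 lay on slide 2. On each array 45.4% to 56.7% of probes exceeded background clearly, and none of the spots was saturated. Repeated spots of a probe varied with a median coefficient of 13.03% and 8.44% on ERRα+/+ PBS replicates 2 and 3 and 3.80% to 4.80% on the other arrays. All 9 of the 10 defining macrophage markers that were on the array were above background on all 12 arrays. The LPS arrays of slide 1 stood nearer to the PBS arrays than those of slide 2 did: on the first principal component they lay at 33.2 (ERRα+/+) and 50.4 (ERRα-/-), against 90.4 to 104.7 on slide 2, with all PBS arrays between -83.9 and -69.2.

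With all 12 arrays, no single gene had a response difference that passed the test, while 6020 and 6616 genes passed for LPS itself in the 2 genotypes. Of 13116 genes, 0 were called by limma at an adjusted p under 0.05 (0% of all), and 293 (2.23%) had an unadjusted p under 0.05, 146 of them positive (1.11%) and 147 negative (1.12%). With the replicate number as a block 0 were called and 750 (5.72%) had an unadjusted p under 0.05, with a lowest adjusted p of 0.501. The response difference had a median of 0.0089 and lay between -0.61 and 0.67 for the genes from the 5th to the 95th percentile. The median standard error was 0.36, and 422 genes had a response difference beyond 1 in either direction. Genes kept the same sign in all 3 replicate numbers in 5780 cases (44.1%), of which 3058 were positive (23.3%) and 2722 negative (20.8%). Across genes, which are not independent replicates, the response differences of replicates 2 and 3, on the same slide, had a Pearson's r of 0.395, and those of replicate 1 with replicates 2 and 3 had 0.295 and 0.206.

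**Figure D1:**
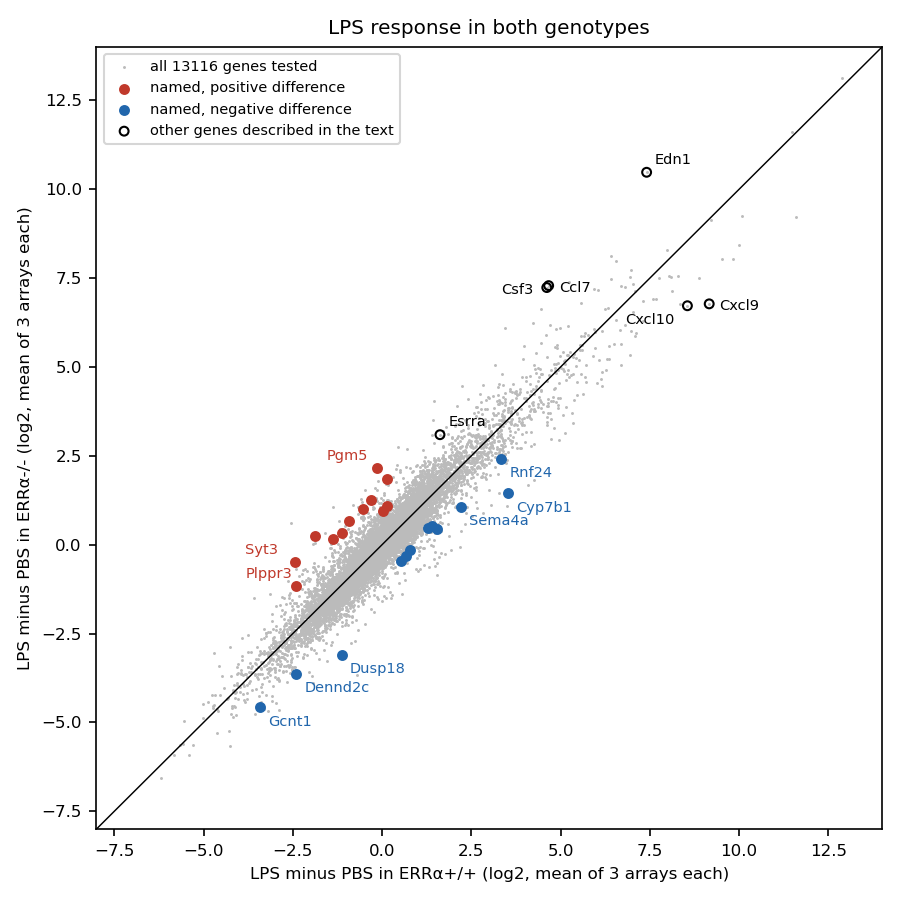
LPS response (log2, mean of 3 LPS arrays minus mean of 3 PBS arrays) in ERRα-/- cells (vertical) against ERRα+/+ cells (horizontal) for 13116 genes, with the diagonal of equal responses. Most genes lie along the diagonal, with Pgm5 (response difference 2.29) and Edn1 (3.07) above it and Rnf24 (-0.91) and Cxcl9 (-2.39) below it.

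Esrra itself was lower in ERRα-/- cells in every replicate number, and LPS raised its signal in both genotypes. The probe, on chromosome 19, read 4.54, 4.39 and 4.68 in ERRα+/+ PBS and 5.87, 6.25 and 6.36 in ERRα+/+ LPS (log2 above the array's 75th percentile, the scale of all levels here). In ERRα-/- cells it read 2.48, 0.25 and 0.15 under PBS and 4.40, 3.92 and 3.83 under LPS. The genotypes did not overlap under either treatment, and the slide 1 array of ERRα-/- PBS stood above the other two of its group. With LPS, ERRα+/+ cells gained 1.62 (adjusted p = 0.0232), while the rise of Esrra in ERRα-/- cells was 3.09 (adjusted p = 0.000698). The response difference was 1.47 ± 0.72 (SE, n = 3 arrays per group, unadjusted p = 0.0653) and 0.59, 1.81 and 2.01 in replicates 1 to 3. Whether the probe lies in the deleted part is not known, so its signal in ERRα-/- cells cannot be read as protein-coding transcript. Of the coactivators, Ppargc1a was not bright enough to be tested, and Ppargc1b, which works with ERRα, had a response difference of -0.79 ± 0.52 (unadjusted p = 0.153), with -0.08, -0.88 and -1.43 in replicates 1 to 3. Of the other ERR genes, Esrrg was not tested, and Esrrb, at 0.10 ± 0.80, was above background on only 1 of 3 ERRα+/+ LPS arrays and no ERRα-/- LPS array. Tnfaip3, the gene of A20, a brake on NF-kB, rose by 4.31 in ERRα+/+ and 4.47 in ERRα-/- cells (adjusted p = 0.000332 and 0.000252). Its response difference was 0.16 ± 0.86, with a 95% interval from -1.76 to 2.07, and -0.04, 0.18 and 0.33 in replicates 1 to 3. This error and interval come from the fit without a block. There the lower LPS levels of slide 1, shared by both genotypes (6.07 and 6.16), count as spread.

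The 12 positive and 12 negative genes of smallest unadjusted p, among those with the same sign in all 3 replicate numbers, are given as values, since none was called. Pgm5, a phosphoglucomutase-like protein of cell junctions, read -1.65, -2.08 and -2.15 in ERRα+/+ PBS, -2.33, -1.90 and -2.07 in ERRα+/+ LPS, -3.08, -3.63 and -3.28 in ERRα-/- PBS and -1.68, -0.88 and -0.98 in ERRα-/- LPS. The ERRα-/- LPS arrays were the highest of their replicate number in replicates 2 and 3, and the ERRα-/- PBS arrays were the lowest in all 3. Its response difference was 2.29 ± 0.35 (95% interval 1.52 to 3.06, unadjusted p = 5.05e-05, adjusted p = 0.663), the smallest p of all genes. Pmvk, the phosphomevalonate kinase of cholesterol synthesis, read 3.77, 3.61 and 3.77 in ERRα+/+ PBS, 3.97, 3.67 and 3.91 in ERRα+/+ LPS, 4.05, 4.00 and 4.04 in ERRα-/- PBS, and 5.26, 5.06 and 5.01 in ERRα-/- LPS. Each array of the last group lay above all 9 others. Pmvk rose by 1.08 in ERRα-/- cells (adjusted p = 0.000163) and differed by 0.13 in ERRα+/+ cells (adjusted p = 0.45), a response difference of 0.95 ± 0.19; its other probe gave 1.06. Egr1, an immediate early transcription factor, rose by 1.27 in ERRα-/- cells (adjusted p = 0.0017) and differed by -0.30 in ERRα+/+ cells (adjusted p = 0.338); its response difference was 1.56 ± 0.34, with 2.06, 1.31 and 1.33 in replicates 1 to 3. Rgs1, a regulator of G protein signalling, had 1.54 ± 0.40, but replicate 1 gave 2.75 and replicates 2 and 3 gave 0.97 and 0.89. The ER-shaping protein gene Reep2 had 0.94 ± 0.21, the Helios gene Ikzf2 1.61 ± 0.40, Plppr3 1.24 ± 0.31 and the elongation factor gene Ell3 1.69 ± 0.43.

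Endothelial genes appeared among the positive ones at low levels. Cldn5, the tight junction claudin of endothelium, fell by 1.11 with LPS in ERRα+/+ cells (adjusted p = 0.000816) and differed by 0.33 in ERRα-/- cells (adjusted p = 0.153), a response difference of 1.45 ± 0.26 with 1.47, 1.40 and 1.48 in replicates 1 to 3. It started lower in ERRα-/- PBS by 1.73 (adjusted p = 0.00616), and under LPS the genotypes differed by -0.28 (adjusted p = 0.949). Ptprb, the vascular endothelial phosphatase gene, had 2.12 ± 0.52 and was above background on no ERRα-/- LPS array; with values floored at each array's lowest well-above-background level it was 1.82. The summed linear level of the stromal, fibroblast and endothelial markers (the array's 75th percentile being 1 for each gene) was 38.9 to 49.2 in ERRα+/+ PBS and 31.0 to 34.2 in ERRα-/- PBS, and 52.3 to 61.8 and 37.6 to 51.2 under LPS. Of these 16 markers, 13 were tested and 11 had a positive response difference, among them Cdh5, the endothelial cadherin, at 1.33, against 6747 of 13116 genes; in replicate 1 only 6 of the 13 were positive. Their part in the values of Cldn5 and Ptprb was not tested, and in bulk samples fewer cells of a type and less RNA per cell cannot be told apart. The synaptotagmin gene Syt3 and the dynein gene Dnah6, also dim, had 1.94 and 1.54, and 0.73 and 1.16 with floored values.

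Among the negative genes were several that rose with LPS in both genotypes, and by less in ERRα-/- cells. Rnf24, a RING finger protein gene, read -1.05, -1.19 and -1.28 in ERRα+/+ PBS, 2.01, 2.24 and 2.23 in ERRα+/+ LPS, -0.30, -0.36 and -0.35 in ERRα-/- PBS and 2.07, 2.08 and 2.11 in ERRα-/- LPS. Under PBS the ERRα-/- arrays lay above all ERRα+/+ arrays (a difference of 0.84, adjusted p = 0.0271), and under LPS the groups overlapped. The response difference was -0.91 ± 0.18 (unadjusted p = 0.000408). Eif4ebp1, the translation repressor 4E-BP1, read 4.72, 4.60 and 4.65 in ERRα+/+ PBS, 5.73, 6.25 and 6.16 in ERRα+/+ LPS, 4.69, 4.91 and 4.81 in ERRα-/- PBS and 5.21, 5.44 and 5.32 in ERRα-/- LPS. Here the gap was under LPS, where every ERRα+/+ array lay above every ERRα-/- array. This gave -0.87 ± 0.23. The same order under LPS held for Asap1, an Arf GTPase-activating protein gene (-1.11 ± 0.24). Sema4a, a semaphorin gene (-1.14 ± 0.28), was higher on every ERRα-/- array than on every ERRα+/+ array under PBS, and under LPS it was lower in replicates 2 and 3 (4.81 and 4.64 against 5.53 and 5.56) and nearly equal in replicate 1 (5.00 against 5.01). Iars, the isoleucyl-tRNA synthetase gene, had -0.83 ± 0.23, with only -0.14 in replicate 1 against -1.29 and -1.05 in replicates 2 and 3. Akap1, which anchors protein kinase A to mitochondria, rose by 0.68 in ERRα+/+ cells (adjusted p = 0.00597) and differed by -0.32 in ERRα-/- cells (adjusted p = 0.123), a response difference of -0.995 ± 0.23. Gcnt1, an O-glycan branching enzyme gene, fell in both genotypes, by 3.41 and 4.58 (adjusted p = 2.01e-06 and 5.4e-07), and had -1.17 ± 0.29. Of the other members, Lca5 and Wtip had -0.94 and -0.997, and the other probe of Lca5 gave -0.19.

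Of the negative genes, 3 were not above background on any array of at least 1 group. Cyp7b1, an oxysterol hydroxylase gene, was above background on ERRα+/+ LPS arrays only, at -3.65, -2.92 and -1.87, and rose there at least 4.12-fold (adjusted p = 8.35e-05; the bound is the mean LPS level over the lowest well-above-background level of the PBS arrays). Its measured response difference of -2.09 ± 0.57 became -1.15 with floored values. Dusp18 went from -1.97 to -0.44 and Dennd2c from -1.23 to -0.53 in the same way, and the other probe of Dusp18 gave -0.45. These 3 values thus depend on signals below background. Over 24 settings, none of the 24 genes changed direction, but they had been selected on the same arrays for 1 sign in all 3 replicate numbers.

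**Figure D2:**
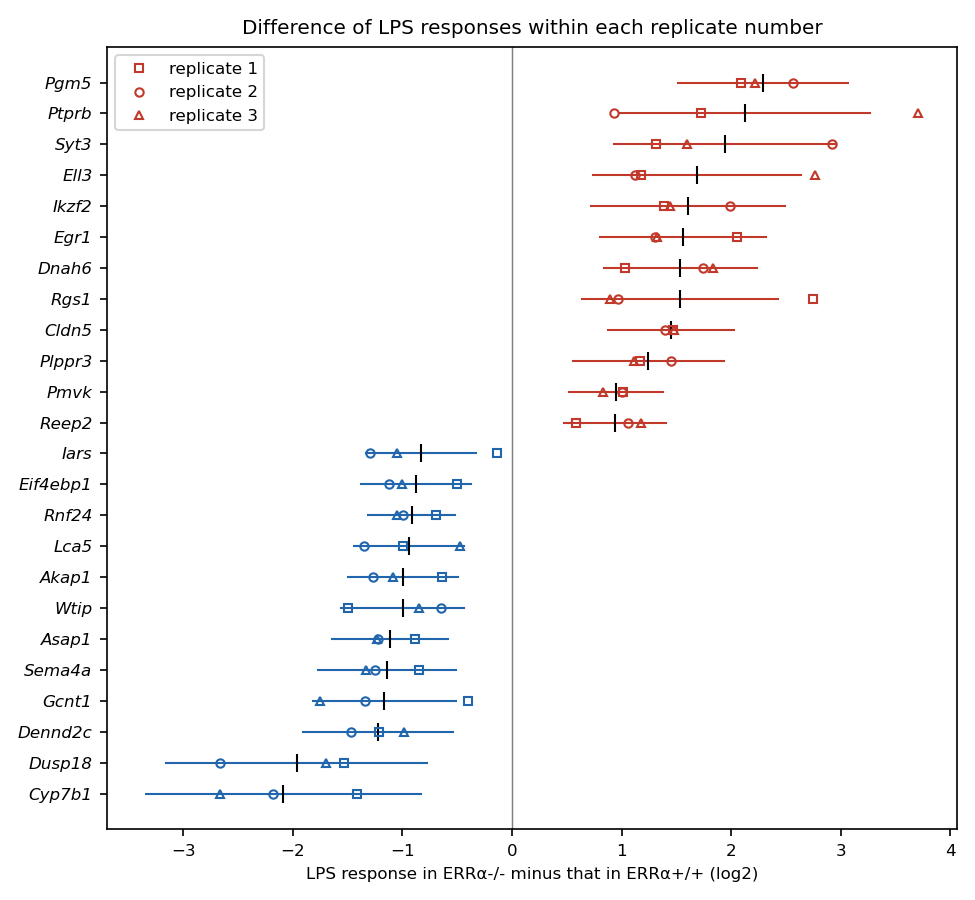
Response difference (log2) of the 12 positive and 12 negative genes of smallest p within replicate 1 (squares), 2 (circles) and 3 (triangles), with the mean (black tick) and the 95% interval of the 12-array fit (line). Cldn5 has nearly equal values in all 3 replicates (1.47, 1.40 and 1.48), and in Iars replicate 1 (-0.14) lies apart.

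Within slide 2 alone, 542 genes were called (4.13% of 13116), 275 positive (2.10%) and 267 negative (2.04%). This fit has 2 arrays per group, and it contains both ERRα+/+ PBS arrays of high spot variation. The number called changed with single arrays left out, which leaves 1 group with 1 array that is assumed to vary like the other groups: it was 0 without ERRα-/- PBS replicate 2, 6 without ERRα-/- PBS replicate 3, 42 and 6 without ERRα-/- LPS replicates 2 and 3, 412 and 1322 without ERRα+/+ PBS replicates 2 and 3, and 87 and 7 without ERRα+/+ LPS replicates 2 and 3. All 542 genes had the same sign and an unadjusted p under 0.05 in each of these fits, but they had been selected on the same arrays. Replicate 1 was not used there. In it, 233 of the 275 positive genes (84.7%) were positive, against 51.6% of all genes, with a median response difference of 0.45. Of the 267 negative genes, 214 (80.1%) were negative in replicate 1, against 48.4% of all genes, with a median of -0.31. Of the 24 genes above, 7 positive and 10 negative ones were called within slide 2, against 2.10% and 2.04% of all genes. The 24 had been selected on 12 arrays that include those of slide 2, so this count follows in large part from that choice.

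On the arrays of slide 2, most genes called there had a larger genotype difference under LPS than under PBS. They were selected on the response difference of these same arrays. Opposite signs of the genotype difference under PBS and LPS, and of the LPS response in the genotypes, follow in part from that choice. By genotype, more genes were called under LPS than under PBS within slide 2 (2215 against 1249), but fewer on all arrays (17 against 56). A lean to LPS outside slide 2 was not tested. The genotype difference was larger under PBS than under LPS for 31.3% of the positive and 33.7% of the negative genes, against 47.0% of all genes. For the positive genes the median genotype difference on slide 2 was -0.27 under PBS and 0.65 under LPS, and for the negative genes 0.31 and -0.52. By the sign of both responses on slide 2, 160 positive genes went up with LPS in both genotypes, 60 went down in both and 55 went down in ERRα+/+ and up in ERRα-/- cells. Of all 13116 genes 6078 went up in both, 5672 down in both and 1366 in opposite directions. Of the negative genes 87 went up in both, 137 down in both and 43 up in ERRα+/+ and down in ERRα-/- cells. Both opposite responses were themselves called for 38 genes, of which 9 had the same pair of signs in replicate 1. Among them were Esm1, an endothelial proteoglycan gene (-1.60 in ERRα+/+ and 0.81 in ERRα-/- cells), and Yap1, the Hippo pathway coactivator (-0.64 and 0.89). Akap1 (0.71 and -0.47) and Wtip (0.25 and -0.50) went the other way. Irf8, a transcription factor of the myeloid lineage, had -0.37 and 0.74 on slide 2, but -1.28 and -0.58 in replicate 1.

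**Figure D3:**
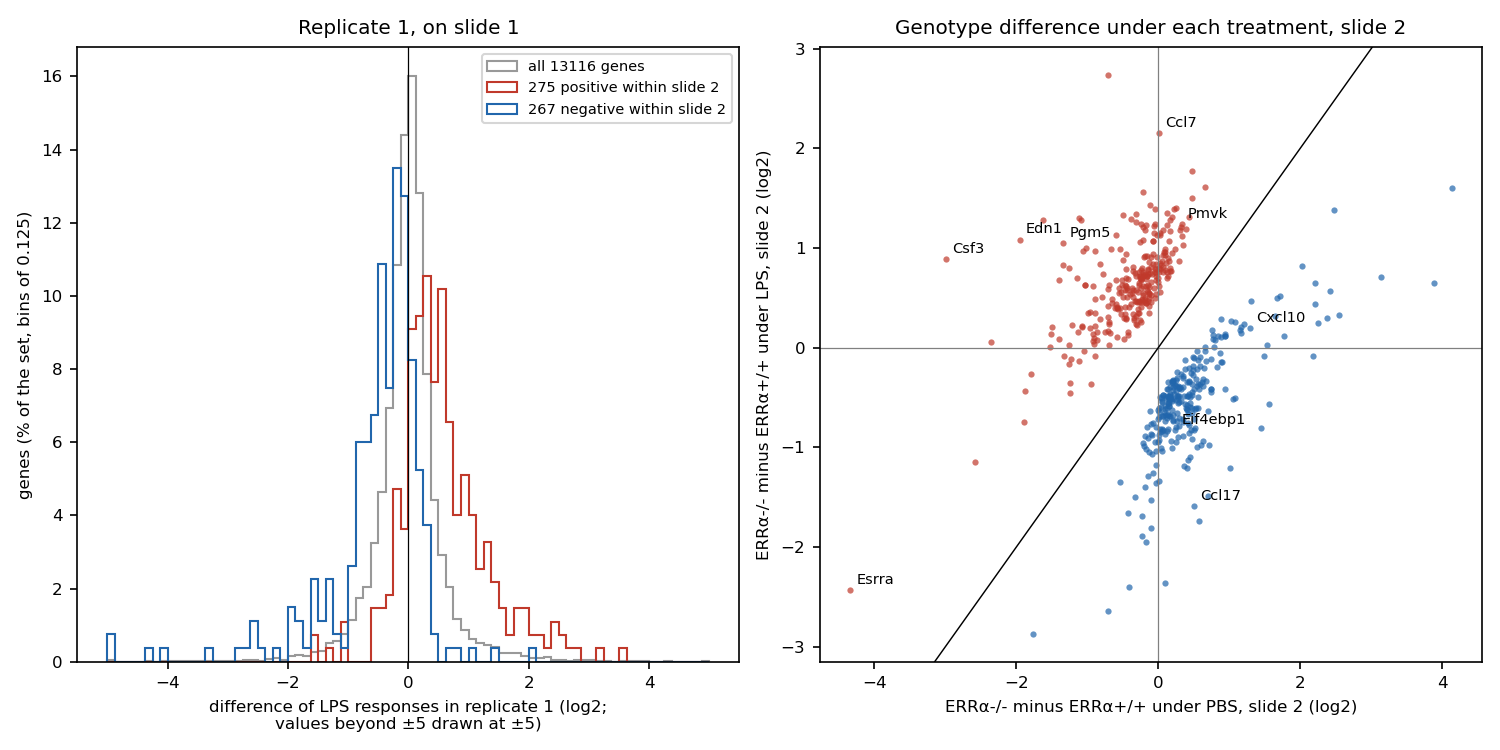
Left, distribution of the response difference in replicate 1 (log2, percent of genes per bin) for all genes and for the 275 positive and 267 negative genes called within slide 2, which did not use replicate 1; the medians are 0.45 and -0.31. Right, genotype difference on slide 2 (log2) under LPS (vertical) against PBS (horizontal) for the 542 called genes, with the diagonal on which the response difference is 0.

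Interferon-stimulated genes had mostly negative response differences: they started higher in ERRα-/- cells under PBS and ended closer to ERRα+/+ cells under LPS. These genes encode antiviral effectors and are driven by interferon signalling at an interferon-stimulated response element. Cxcl10, an interferon-induced chemokine for T cells, read -1.80, 1.69 and 2.09 in ERRα+/+ PBS and 2.33, 3.25 and 3.11 in ERRα-/- PBS. Its LPS values were 8.32, 9.61 and 9.71 in ERRα+/+ LPS, against 9.14, 9.87 and 9.84 in ERRα-/- LPS. The genotypes did not overlap under PBS, and under LPS the ERRα-/- array of each number was slightly higher. Its response difference was -1.83 ± 1.20 (unadjusted p = 0.158; -3.30, -1.30 and -0.89 in replicates 1 to 3), and within slide 2 it was -1.09 (adjusted p = 0.044). Ifit1, which binds viral RNA, read -0.32, 0.41 and 1.09 in ERRα+/+ PBS, 2.49, 2.52 and 2.36 in ERRα-/- PBS, 6.22, 7.54 and 7.50 in ERRα+/+ LPS and 6.51, 8.08 and 7.96 in ERRα-/- LPS. It had the same layout as Cxcl10, with a response difference of -1.63 ± 0.70 (unadjusted p = 0.0408). Cxcl9 (-2.39), Ifit3 (-1.53), Isg15 (-1.25) and Rsad2 (-0.97) were further members.

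Of 34 interferon-stimulated genes tested, 32 had a negative response difference, against 6369 of 13116 genes, and 23 were negative in all 3 replicate numbers, against 20.8% of all genes. The list median was -0.61, against 0.0089 for all genes, with -0.95, -0.42 and -0.33 in replicates 1 to 3. None was called on 12 arrays, and 4 of the 34 had an unadjusted p under 0.05, against 2.23% of all genes. Within slide 2, Cxcl9, Cxcl10 and the oligoadenylate synthetase gene Oas3 (-0.97, adjusted p = 0.0296) were called negative and Irf8 positive. These calls were 11.8% of the list, against 4.13% of all genes. Under PBS the median member was higher in ERRα-/- cells by 1.93, 1.00 and 0.66 in replicates 1 to 3, with 33, 32 and 31 of 34 members higher. Under LPS it was higher by 0.62, 0.54 and 0.40, with 34, 33 and 31 members higher. The negative response difference thus stood beside a genotype difference of the same sign under both treatments that was smaller under LPS. The exceptions to the negative sign were Irf8 (0.97) and Gbp4 (0.50).

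The 250 bases before the transcription start of 3 of these genes are printed with a core of the interferon-stimulated response element in capitals (GAAA, any 2 bases, GAAA, or TTTC, any 2 bases, TTTC where it lies on the other strand), since 58.6% of the list's genes with a promoter in the table (17 of 29) held this motif in the window from 250 bases before to 50 bases after a start, against 4.07% of all genes tested (428 of 10522) and 3.44% of all 32851 windows. The sequences are RefSeq's, build GRCm38.p6, 5′ to 3′ on the gene's strand. Cxcl10 lies at chr5:92348890-92349139 on the minus strand, with its match starting 213 bases before the start. Ifit1 lies at chr19:34640639-34640888 on the plus strand, with matches 104 and 85 bases before. Oas3 lies at chr5:120777660-120777909 on the minus strand, with its match 75 bases before.
Cxcl10: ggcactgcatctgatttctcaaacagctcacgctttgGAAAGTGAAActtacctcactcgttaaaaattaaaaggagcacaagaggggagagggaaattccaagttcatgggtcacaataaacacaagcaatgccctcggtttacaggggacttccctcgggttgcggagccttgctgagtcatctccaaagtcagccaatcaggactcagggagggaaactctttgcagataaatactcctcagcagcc
Ifit1: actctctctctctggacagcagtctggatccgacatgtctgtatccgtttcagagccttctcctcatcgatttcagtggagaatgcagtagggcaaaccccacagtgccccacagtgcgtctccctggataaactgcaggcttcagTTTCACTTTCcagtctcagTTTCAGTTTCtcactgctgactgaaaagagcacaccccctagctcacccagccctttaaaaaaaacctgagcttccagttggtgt
Oas3: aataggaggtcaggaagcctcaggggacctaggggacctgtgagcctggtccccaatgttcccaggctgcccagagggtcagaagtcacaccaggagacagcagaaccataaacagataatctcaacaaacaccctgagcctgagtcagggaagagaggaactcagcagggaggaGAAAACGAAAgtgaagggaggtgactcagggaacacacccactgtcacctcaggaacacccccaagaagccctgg
Among the genes called within slide 2 the motif was found for 7 of 209 negative genes with a window (3.35%) and 15 of 218 positive ones (6.88%).

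Chemokines and NF-kB-dependent cytokines were called in both directions within slide 2. Ccl7 and Ccl2, ligands of CCR2 that recruit monocytes, lay side by side with larger LPS responses in ERRα-/- cells. Ccl7 read -0.72, -1.44 and -1.35 in ERRα+/+ PBS, 0.63, 4.97 and 4.88 in ERRα+/+ LPS, -0.65, -1.39 and -1.38 in ERRα-/- PBS and 4.30, 7.09 and 7.06 in ERRα-/- LPS. The PBS groups overlapped, and under LPS each ERRα-/- array was over 2 above the ERRα+/+ array of the same number, while slide 1 lay lower in both genotypes. The response difference of Ccl7 was 2.62 ± 1.52 (unadjusted p = 0.114; 3.59, 2.06 and 2.21 in replicates 1 to 3) and within slide 2 it was 2.14 (adjusted p = 0.00485). That of Ccl2 was 1.61 ± 1.25 (1.97, 1.47 and 1.41), and 1.44 within slide 2 (adjusted p = 0.00949). Il1rn, the interleukin-1 receptor antagonist, and Il27 had 0.89 and 0.74 within slide 2 (adjusted p = 0.0196 and 0.0452). Csf3, the granulocyte growth factor, had 3.88 there (adjusted p = 0.0377), but 0.11 in replicate 1, and no ERRα-/- PBS array was above background.

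Other chemokines of the same families had smaller responses in ERRα-/- cells. Ccl5, a chemokine for T cells and monocytes, read 2.99, 2.84 and 2.78 in ERRα+/+ PBS, 9.39, 9.96 and 10.07 in ERRα+/+ LPS, 5.84, 3.97 and 3.98 in ERRα-/- PBS and 9.52, 10.16 and 10.17 in ERRα-/- LPS. The genotypes did not overlap under PBS and nearly met under LPS, as for Cxcl10. Ccl5 had a response difference of -1.59 ± 0.62 (unadjusted p = 0.0284) and -1.02 within slide 2 (adjusted p = 0.0163). Ccl3, a macrophage inflammatory protein, had -1.08 ± 0.42 (-1.31, -1.06 and -0.86 in replicates 1 to 3) and -0.96 within slide 2 (adjusted p = 0.0492). Ccl17, a CCR4 ligand, and the membrane-bound Cx3cl1 had -2.09 and -1.14 within slide 2 (adjusted p = 0.0151 and 0.0463) and -0.05 and -0.14 in replicate 1; Ccl17 was above background on no PBS array. Cxcl1, a neutrophil attractant, had -1.49 ± 0.50 (unadjusted p = 0.0137), with -3.20 in replicate 1 and -0.61 and -0.65 in replicates 2 and 3. With normexp background correction Cxcl1 was the 1 gene called on 12 arrays (-2.99, adjusted p = 0.0452). It was above background on only 1 of 3 ERRα-/- PBS arrays, and floored values gave -1.80. Cxcl1 was lower in ERRα-/- cells by limma under PBS (-2.46, adjusted p = 0.0232) and LPS (-3.94, adjusted p = 0.00256). Of 28 NF-kB-dependent cytokines and chemokines tested, 11 were positive and 17 negative (median -0.55), 0 were called on 12 arrays, and 5 positive and 3 negative members were called within slide 2 (28.6%, against 4.13% of all genes). The replicate medians were -0.44, 0.06 and -0.37. Of 24 CC, CXC and CX3C chemokines, a list assembled after the values were seen, 16 were negative (median -0.61). In all 3 replicate numbers 13 were negative and 6 positive, against 20.8% and 23.3% of all genes. Within slide 2, 6 negative members and 2 positive ones, Ccl2 and Ccl7, were called (33.3%, against 4.13% of all genes). Since the members were chosen with these values known, the counts describe that choice.

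Among secreted growth factors and mediators that act on vessels, a group assembled after the values were seen, most members had a positive response difference, and none was called on 12 arrays. Edn1, the vasoconstrictor endothelin 1, read -4.90, -3.12 and -3.35 in ERRα+/+ PBS, 0.65, 5.07 and 5.13 in ERRα+/+ LPS, -5.52, -5.06 and -5.31 in ERRα-/- PBS and 3.17, 6.20 and 6.17 in ERRα-/- LPS. ERRα-/- cells were lower under PBS and higher under LPS in all 3 replicate numbers, although no ERRα-/- PBS array was well above background. Edn1 rose by 7.41 in ERRα+/+ cells (adjusted p = 0.000624) and at least 1082-fold in ERRα-/- cells (adjusted p = 7.73e-05). Its response difference was 3.07 ± 1.65 (unadjusted p = 0.0908; 3.14, 3.07 and 2.99 in replicates 1 to 3), 2.67 with floored values, and 3.03 within slide 2 (adjusted p = 0.00485). Inhba, which encodes the activin A subunit, had 1.90 ± 0.67 (2.38, 1.42 and 1.90), and the EGF receptor ligand gene Hbegf 1.75 ± 0.68. The bone morphogenetic protein gene Bmp2 (1.76 ± 1.81) and the urokinase gene Plau (1.28 ± 1.32) had standard errors as large as their values.

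Of 33 tested members of this group, 27 had a positive response difference (median 0.55), 20 were positive in all 3 replicate numbers, against 23.3% of all genes, and 13 were called within slide 2, all positive (39.4%, against 2.10% of all genes). On 12 arrays 6 had an unadjusted p under 0.05, against 2.23% of all genes. The replicate medians were 0.63, 0.65 and 0.53; since the members were chosen with these values known, the counts describe that choice. The median member was lower in ERRα-/- PBS by a difference of -0.87, -0.59 and -0.51 in replicates 1 to 3, and differed by -0.16, 0.21 and 0.21 under LPS. The stromal and endothelial marker levels given above for ERRα-/- PBS were lower in the same direction; their part was not tested.

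**Figure D4:**
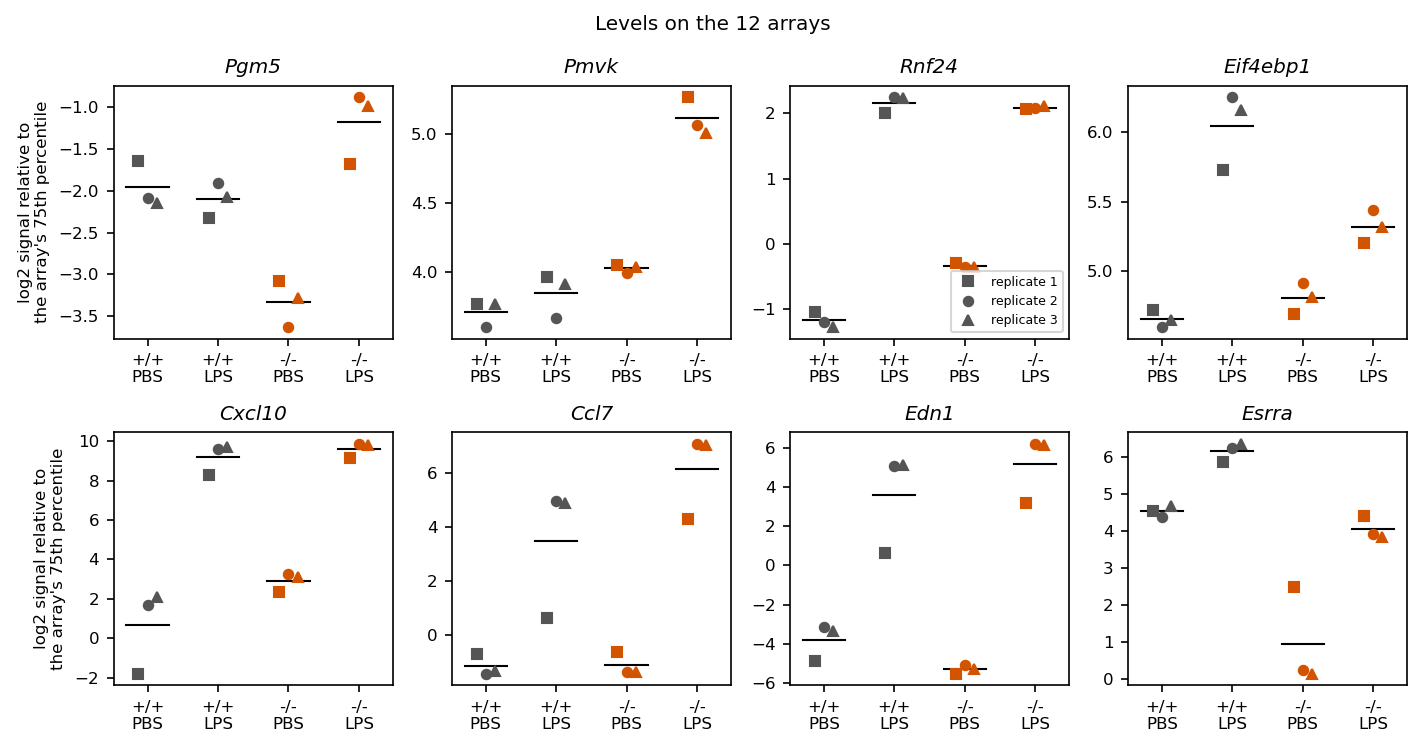
Levels (log2 above the array's 75th percentile) of 8 genes on the 12 arrays by genotype and treatment, with replicates 1, 2 and 3 as squares, circles and triangles and the group mean as a line. In Ccl7 and Edn1 the squares of slide 1 lie lower under LPS than the other replicates (0.63 against 4.97 and 4.88 for Ccl7 in ERRα+/+ cells), and in Cxcl10 the genotypes differ mainly under PBS.

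Immediate early genes and dual-specificity phosphatases, which report and restrain MAP kinase signalling, had mostly positive response differences. Dusp1, the phosphatase that limits p38 and JNK signalling, read 2.67, 1.90 and 1.80 in ERRα+/+ PBS, 2.07, 4.77 and 4.93 in ERRα+/+ LPS, 2.22, 1.69 and 1.77 in ERRα-/- PBS and 3.09, 6.26 and 6.30 in ERRα-/- LPS. Under LPS each ERRα-/- array was higher than the ERRα+/+ array of its number. Dusp1 had a response difference of 1.52 ± 1.27 (1.47, 1.70 and 1.40) and 1.55 within slide 2 (adjusted p = 0.0123). Of 17 phosphatases tested 14 were positive (median 0.36), 11 in all 3 replicate numbers, against 23.3% of all genes. Dusp1, Dusp2, Dusp7, Dusp10 and Dusp14 were called positive within slide 2 and Dusp18 negative (35.3% in all, against 4.13% of all genes). Of 30 immediate early and ID family genes 25 were positive (median 0.27). In all 3 replicate numbers 18 were positive and 0 negative, against 23.3% and 20.8% of all genes. Id1 and Id3, targets of BMP signalling, had 1.39 ± 0.70 (1.40, 1.44 and 1.33) and 0.89 ± 0.69. Gadd45a, a growth arrest gene, had 1.59 ± 0.69, Fosl2 0.93 ± 0.66 and Egr2 0.77 ± 0.78. Within slide 2, 10 of these 30 genes were called positive and 1, Klf10 (-0.72), negative (36.7% in all, against 4.13% of all genes). Both groups were assembled after the values were seen, so these counts describe that choice.

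The median member of a list of cholesterol synthesis genes and LXR targets was higher in ERRα-/- cells under both treatments, and more so under LPS. Of 30 such genes, 24 had a positive response difference (median 0.29). In all 3 replicate numbers 15 were positive and 1 was negative, against 23.3% and 20.8% of all genes. The replicate medians were 0.34, 0.35 and 0.24. The median member was higher in ERRα-/- cells by 0.22, 0.64 and 0.56 under PBS and by 0.87, 1.22 and 0.98 under LPS. Sc5d, the sterol desaturase gene, rose by 1.05 and 2.08 in ERRα+/+ and ERRα-/- cells (adjusted p = 0.00267 and 4.89e-05), a response difference of 1.03 ± 0.30 (1.17, 0.97 and 0.94). Dhcr7, the last enzyme of the pathway, fell by 2.60 and 1.49 (adjusted p = 0.00107 and 0.0181) and had 1.11 ± 0.64. Pmvk, Sc5d, Dhcr7 and the oxysterol synthase gene Ch25h were called within slide 2 (13.3%, against 2.10% of all genes), all positive. The synthesis genes Lss (0.97), Hmgcs1 (0.80) and Msmo1 (0.78) were not called. The regulators Srebf2 and Srebf1 had -0.06 and -0.15, and the efflux transporter genes Abca1 and Abcg1 had 0.05 and 0.26.

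Most genes of amino acid supply and tRNA charging had negative response differences on slide 2, but not in replicate 1. Of 22 aminoacyl-tRNA synthetase genes and partners, 18 and 17 were negative in replicates 2 and 3 and 11 in replicate 1, with replicate medians of 0.02, -0.34 and -0.33. Iars, Mars1, Tars and Aimp2 were called negative within slide 2 (18.2%, against 2.04% of all genes). Of 27 genes of amino acid supply and one-carbon metabolism, 21 were negative in each of replicates 2 and 3 and 10 in replicate 1. Within slide 2, 7 were called negative (25.9%, against 2.04% of all genes). Of all 13116 genes, 6345, 6253 and 6538 were negative in replicates 1 to 3. Both groups were assembled after the slide 2 calls were seen, so these counts describe that choice. Asns, the asparagine synthetase gene, read 2.28, 2.45 and 2.43 in ERRα+/+ PBS, 4.17, 5.98 and 6.10 in ERRα+/+ LPS, 1.29, 2.24 and 2.27 in ERRα-/- PBS and 3.66, 5.17 and 5.14 in ERRα-/- LPS. Every ERRα-/- array lay below the ERRα+/+ array of its number under both treatments, and the response difference was 0.48, -0.61 and -0.80 in replicates 1 to 3. Tars, the threonyl-tRNA synthetase gene, had -0.02, -0.65 and -0.59. The serine hydroxymethyltransferase gene Shmt2 had 0.13, -0.69 and -0.89, and the amino acid transporter gene Slc38a2 had -0.20, -0.98 and -0.61.

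The promoters of Tars and Asns are printed with the letters TGATGNAA of the amino acid response element, or TTNCATCA on the other strand, in capitals, because ATF4, the transcription factor of amino acid shortage, is known to act through such sites. Tars lies at chr15:11399659-11399908 on the minus strand, with its match starting 15 bases before the start, and Asns at chr6:7693210-7693459 on the minus strand, with its match 23 bases before (RefSeq, build GRCm38.p6, 250 bases, 5′ to 3′).
Tars: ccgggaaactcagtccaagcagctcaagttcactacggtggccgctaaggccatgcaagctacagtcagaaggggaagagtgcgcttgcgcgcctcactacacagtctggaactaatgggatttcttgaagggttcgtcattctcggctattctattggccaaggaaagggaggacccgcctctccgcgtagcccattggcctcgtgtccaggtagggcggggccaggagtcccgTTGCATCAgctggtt
Asns: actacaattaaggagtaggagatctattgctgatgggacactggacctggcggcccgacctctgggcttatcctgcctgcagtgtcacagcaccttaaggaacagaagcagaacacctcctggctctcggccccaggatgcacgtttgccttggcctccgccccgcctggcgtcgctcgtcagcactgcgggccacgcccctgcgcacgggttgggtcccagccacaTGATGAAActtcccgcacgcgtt
The motif was in a window of 5 of 15 synthetase genes with a promoter in the table (33.3%) and 4 of 22 amino acid supply genes (18.2%), against 2.93% of all genes tested and 3.97% of all windows. Among the genes called within slide 2 it was found for 6 of 209 negative genes (2.87%) and 7 of 218 positive ones (3.21%), near the share of all genes tested. The ERRα half-site AAGGTCA was in a window of 7 of 218 positive (3.21%) and 6 of 209 negative genes (2.87%) of slide 2, against 4.13% of all genes tested, and its extended form TCAAGGTCA in 0 of both sets, against 0.342% of all genes tested. Both strands were searched; matches describe letters only.

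Receptors and regulators of macrophage identity also appeared within slide 2. Tlr2, the receptor for bacterial lipopeptides, read 2.38, 4.43 and 4.46 in ERRα+/+ PBS, 6.33, 6.54 and 6.36 in ERRα+/+ LPS, 4.60, 5.26 and 5.12 in ERRα-/- PBS and 6.08, 6.07 and 5.95 in ERRα-/- LPS. ERRα-/- arrays were higher under PBS and lower under LPS in every replicate number. Tlr2 rose by 2.65 in ERRα+/+ cells (adjusted p = 0.00108) and differed by 1.04 in ERRα-/- cells (adjusted p = 0.083); its response difference was -1.61 ± 0.65. The formyl peptide receptor gene Fpr1 and the Mincle gene Clec4e had -0.83 and -0.59 within slide 2 (adjusted p = 0.0394 and 0.0408). On the positive side, the nuclear receptor gene Pparg fell by 3.08 and 2.14 (adjusted p = 1.81e-06 and 1.62e-05). The response difference of Pparg was 0.94 ± 0.26, with 0.97, 0.91 and 0.95 in replicates 1 to 3. Mertk, the receptor for engulfing dying cells, had 0.80 ± 0.52. Of 19 macrophage identity genes 11 were positive, with a median of 0.03.

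Genes of mitochondrial energy metabolism, the known targets of ERRα, showed little response difference as groups. Of 75 oxidative phosphorylation genes 42 were positive and 33 negative (median 0.05), but the replicates differed, with 61, 42 and 21 positive in replicates 1 to 3. In this list 1 gene was called within slide 2 (1.33%, against 4.13% of all genes), the ATP synthase gene Atp5b (-0.74, adjusted p = 0.0301), which had 0.26 in replicate 1. Of 26 tricarboxylic acid cycle genes 8 were positive (median -0.07), and of 28 fatty acid oxidation genes 15 (median 0.01). Of either list 0 were called by limma within slide 2, against 4.13% of all genes. On 12 arrays 0 had an unadjusted p under 0.05, against 2.23% of all genes. In lists this short, counts of 0 lie near those shares. Mdh1, a cytosolic malate dehydrogenase gene, had 0.24, and -0.096 with normexp background correction. Cpt1a, which admits fatty acids into mitochondria, fell by 0.92 and 0.93 with LPS (adjusted p = 0.00299 and 0.00248), and its response difference was -0.01 ± 0.27, with a 95% interval from -0.61 to 0.58. Of 31 mitochondrial ribosome and translation genes 21 were negative (median -0.08), and only Mrps35 was called by limma within slide 2 (-0.63, adjusted p = 0.0466). This was 3.23% of the list, against 4.13% of all genes. Of 21 glycolysis genes 11 were positive (median 0.01); Pfkfb3, which raises glycolytic flux (0.77), and the phosphofructokinase gene Pfkm (0.58) were called positive within slide 2 (9.52%, against 4.13% of all genes). Pfkm had -0.22 in replicate 1. Of 21 ERR genes, coactivators and known targets 14 were negative (median -0.12). Within slide 2 Esrra, the deleted gene itself, and the deacetylase gene Sirt1 (0.66) were called positive and Atp5b negative. These calls were 14.3% of the list, against 4.13% of all genes.

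The remaining lists are given by their medians, against 0.0089 for all genes. In 20 apoptosis and p53 target genes 4 were called positive within slide 2 (20.0%, against 2.10% of all genes), namely Mdm2, Bcl2l1, Bcl2a1d and Gadd45a, although the median was 0.03. The neutrophil markers had a median of 0.39 (13 of 14 positive), but 1.43 in replicate 1 against 0.11 and 0.21 in replicates 2 and 3. The mast cell markers had 0.59 (6 of 7 positive) with 1.33, 0.30 and 0.30; the dendritic cell markers had 0.36 (9 of 11 positive), with 0.56, 0.12 and 0.66. Fcer1a and Mcpt4, defining mast cell genes, were above background on 0 arrays, as were Xcr1 of dendritic cells, Cd8a and Ncr1 of lymphocytes and Klf1 of erythroid cells. The medians of the autophagy (0.08), MHC class II (0.01), oxidative stress (-0.15), unfolded protein (0.19), cell cycle (-0.10), negative feedback (-0.04), effector (-0.24), alternative activation (0.12), Esrra neighbour (-0.01), osteoclast (0.07), erythroid (0.18) and lymphocyte (0.12) lists lay between the extremes above.

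**Figure D5:**
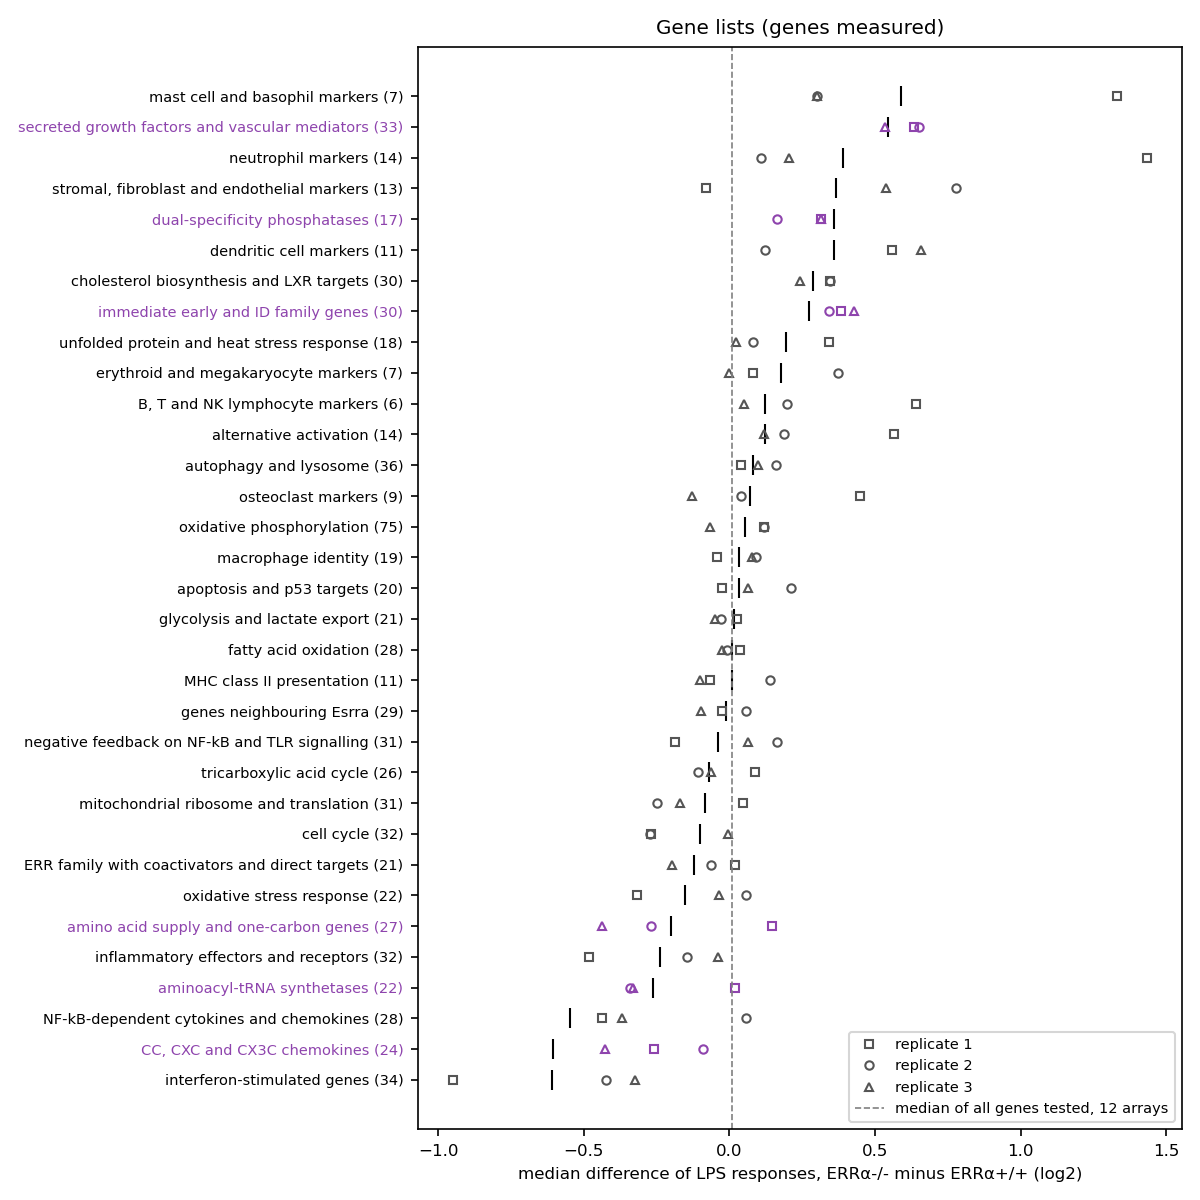
Median response difference (log2) of each gene list in replicates 1 (squares), 2 (circles) and 3 (triangles) and over the 12 arrays (black tick), with the number of genes measured; lists in purple were assembled after the values were seen. The interferon-stimulated genes lie below 0 in all 3 replicates (-0.95, -0.42 and -0.33) and the cholesterol genes above it, while neutrophil and mast cell markers are highest in replicate 1.

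The overall size of the LPS response differed little. Over 4266 genes with an average response beyond 1, the median member responded by 0.0939 (log2) more in ERRα-/- cells, with 0.129, 0.0991 and 0.0677 in replicates 1 to 3 (exact two-sided sign-flip test, p = 0.25, the smallest that 3 replicates allow). Without ERRα+/+ LPS replicate 1 it was -0.118. LPS itself called 6020 genes in ERRα+/+ cells (2909 higher, 22.2%; 3111 lower, 23.7%) and 6616 in ERRα-/- cells (3295 higher, 25.1%; 3321 lower, 25.3%). Genotype called 56 genes under PBS (9 higher, 0.0686%; 47 lower, 0.358%) and 17 under LPS (10 higher, 0.0762%; 7 lower, 0.0534%); with the replicate block these numbers were 193 and 132.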

How the data were processed

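Spot intensities of 12 single-colour Agilent arrays, 4 groups of 3, were used as deposited. Per the file headers, the authors extracted them with Feature Extraction 11.5.1.1 (9.3.2.1 per the submitters' processing notes), which subtracts the background; the deposited value table held the same processed intensity at all 62976 spots of each array. Here the log2 processed intensity minus the log2 75th percentile of the array was computed from the authors' deposited values, spots of a probe were averaged, and the brightest probe of each gene was kept. A probe entered where some group had it well above background on each of its 3 arrays. RefSeq tables (GRCm38.p6) named 27509 of 55681 probes. A group-means model was fitted to 12 arrays with limma 3.58.1 (R 4.3.3), with Benjamini-Hochberg adjustment over 13116 genes and a threshold of 0.05; the code was tested on simulated data.

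Genes were named as those called in the interaction, in default of which the 12 per direction of smallest p with 1 sign in all 3 replicate numbers, plus ERR genes, coactivators, Tnfaip3 and list members of smallest p. The members, the 27 lists and the rules were chosen with earlier results of these data known, and 6 further families and the genes named from the slide 2 fit were chosen after their values were seen. Same-numbered samples deviated together (correlations of 0.143 to 0.784), so the numbers were taken as pairs for the within-replicate differences and the replicate block. Standard errors, intervals and p-values are from fits without a block unless stated. They therefore ignore the pairing and include spread that same-numbered samples share. Within slide 2 the differences between replicates 2 and 3 correlated by -0.0163 to 0.161 between groups. The pairing comes from the labels and the slides, since replicate 1 carries no number in its title. The number of arrays limits the precision. Alternatives covered background correction, scaling, filters, probes, blocks, array weights and left-out arrays.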

Additional observations from a re-analysis of the deposited data

Results flagged for a closer look

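Of the genes named, 5 had LPS responses of opposite sign in the genotypes in all 3 replicate numbers, as did 128 of all genes tested (0.976%). The difference between the genotypes was not called by limma on 12 arrays for any of them. Cldn5, the endothelial claudin, went from -1.10, -1.19 and -1.05 in ERRα+/+ cells to 0.37, 0.20 and 0.43 in ERRα-/- cells (response difference 1.45). Ikzf2 went from -0.62, -1.04 and -1.12 to 0.77, 0.95 and 0.32 (1.61). In the other direction, Akap1 had 0.62, 0.76 and 0.65 in ERRα+/+ cells and -0.02, -0.50 and -0.43 in ERRα-/- cells (-0.995), so that replicate 1 was close to 0. Lca5 had 0.88, 1.05 and 0.41 against -0.12, -0.30 and -0.07 (-0.94), and Wtip had 1.11, 0.25 and 0.25 against -0.38, -0.40 and -0.60 (-0.997).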

How the results depend on the processing

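The absence of calls in the interaction held under quantile and median scaling, other filters on dim probes, the slide block, the replicate block and each left-out array (0 to 0), while normexp gave 1, slide 2 alone 542 and array weights, which gave slide 1 weights of 0.10 to 0.20, 1227. Within slide 2 (settings added after seeing the data) the count was 519 with floored values, 265 with the replicate block, 510 with quantile normalization, 1718 with normexp, 905 for probes above background on all 12 arrays, and 0 to 1322 with an array left out (412, 1322, 87, 7, 0, 6, 42 and 6). The LPS response called 9479 genes (ERRα+/+) within slide 2, and 9625 (ERRα+/+) and 10772 (ERRα-/-) with array weights; with an array left out it called 4543 to 6687 and 5141 to 7229. Genotype under PBS gave 37 with normexp, 16 with median scaling, 5 without a filter, 278 with the slide block, 193 with the replicate block, 1249 within slide 2, 1542 with array weights and 3 to 81 with an array left out. Under LPS the counts were 9, 6, 211, 132, 2215 and 4002 for median scaling, no filter, slide block, replicate block, slide 2 and array weights, and 3 to 42 with an array left out. The replicate block, by which the samples pair, changed no call of the interaction. The median size difference ranged from -0.118 to 0.326 with an array left out, turning negative without ERRα+/+ LPS replicate 1 (-0.118) and ERRα-/- LPS replicate 2 (-0.00156). Among single genes 10 values reversed: Tnfaip3 (-0.0803 with normexp; -0.466 to 0.890 with an array left out, -0.210 and -0.206 among them), Mdh1 (-0.0960 with normexp) and Esrrb (-0.494, -0.230, -0.126, -0.175 and -0.229 with an array left out, a range of -0.494 to 0.592); 1812 kept their direction and their side of the threshold, and 82 passed it. The cause of these differences was not tested. With 3 arrays a group and a median standard error of 0.36, small response differences could not be resolved.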
